A study of Mus musculus with 24 samples.

Results

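The genes described here encode the subunits, assembly chaperones, activators and inhibitor of the proteasome. They were taken as every row of the raw count table whose symbol starts with Psma, Psmb, Psmc, Psmd, Psme, Psmf or Psmg, leaving out pseudogene names, which gave 49 of 15161 genes. By role they comprise 8 alpha subunits and 7 constitutive beta subunits of the 20S core, 3 immunoproteasome subunits, 6 ATPases and 11 non-ATPase subunits of the 19S cap, 3 chaperones of 19S assembly, 4 chaperones of 20S assembly, and 6 activators or inhibitors. The remaining row, Psmc3ip, shares the prefix but encodes a meiotic recombination factor. It had 77 reads over all libraries and did not pass the filter on low counts, so 48 genes were tested. The thymus-specific subunit Psmb11 had no row.

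The study measured RNA from mouse liver by sequencing and asked how a methionine-restricted (MR) diet acts on the liver transcriptome when its protein source is elemental amino acids or oxidized casein. The animals were male C57BL6/J mice aged 4 months. The elemental control and elemental MR groups received diets made from free amino acids with 0.86% and 0.17% methionine. The casein control and casein MR groups received casein diets with the same 0.86% and 0.17%. The sample labels call only the restricted casein diet oxidized, whereas the series text uses oxidized casein for both casein groups. Where only the MR diet was oxidized, casein oxidation and restriction cannot be told apart in the casein comparison or in the comparison of the MR diets. Each group held 6 libraries. The labels number the libraries but do not state that each is 1 mouse, so each p-value speaks only to the spread among these samples, which may be technical.

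The proteasome is the barrel-shaped protease that degrades proteins tagged with ubiquitin. Its 20S core stacks rings of alpha and beta subunits, of which only Psmb5, Psmb6 and Psmb7 carry active sites, and the 19S cap binds ubiquitin, unfolds the substrate with its ATPases and feeds it into the core. In cells exposed to interferon, Psmb8, Psmb9 and Psmb10 replace the active subunits and form the immunoproteasome, which favours peptides for class I antigen presentation. When proteasome activity falls short, the transcription factor NRF1, encoded by Nfe2l1, raises proteasome genes through antioxidant response elements in their promoters.

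Library totals ran from 13.459 to 20.763 M reads. The 8 hepatocyte markers had reads in every library. Skeletal muscle markers summed to 1782 CPM (reads of a gene scaled to a common library size) in casein MR library C_MR_3438, to 63.5 in casein MR library C_MR_3425 and to at most 30.5 in any other library. CPM here use TMM scaling factors, which were 0.903 to 0.986 in the control groups, 1.013 to 1.043 with elemental MR and 1.06 to 1.14 with casein MR. A gene is called where the adjusted p of edgeR's quasi-likelihood test is under 0.05, adjusted over all 13441 genes tested. No share of all genes was counted at an unadjusted p. Fold changes are given on the log2 scale with the standard error.

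Each immunoproteasome gene had a lower level per exon length than the active subunit it replaces. Psmb4, a structural beta subunit, had the highest level per length, at 120.6 CPM per kb over all libraries. Among the active subunits, Psmb6 was at 80.8, Psmb7 at 49.4 and Psmb5 at 25.4 CPM per kb. Their immunoproteasome counterparts were at 5.21 for Psmb9, 22.6 for Psmb10 and 11.3 for Psmb8 on the same scale. Without division by length, Psmb8 was above Psmb5, at 38.3 against 22.8 CPM. The exon lengths used, pooled over all annotated transcripts, were 3381 bases for Psmb8 and 899 for Psmb5. The order of this pair thus depends on those lengths. Psma8, a testis alpha subunit, had 305 reads in all libraries together. The levels between libraries of a group varied by a median coefficient of variation of 6.57% for the 31 constitutive subunits of the core and cap other than the chaperones (Psma8 left out) and of 13% for the 3 immunoproteasome subunits.

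**Figure D1:**
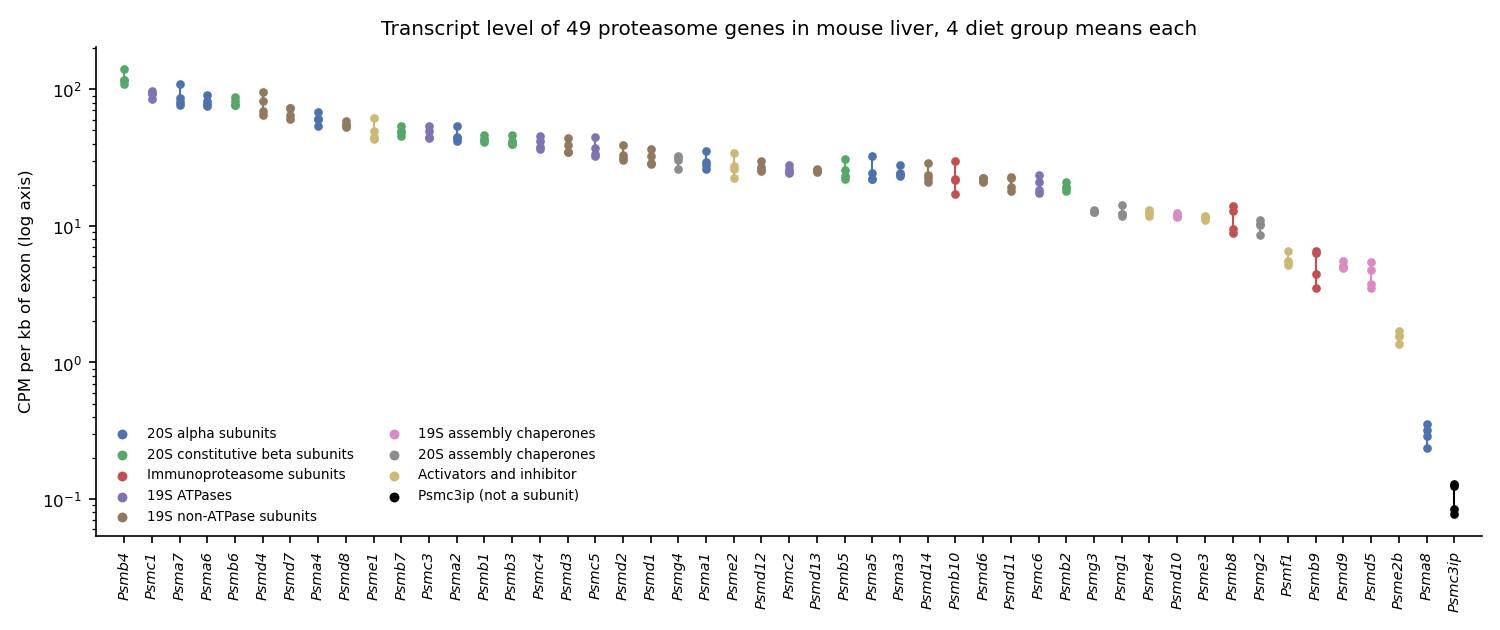
Each gene's level in CPM per kb of exon, on a log axis, with 1 point for the mean of each diet group (6 libraries) and a line from the lowest to the highest mean. Colours give the role, genes are ordered by level, and Psmb4 stands first while Psma8 and Psmc3ip stand last.

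Casein MR raised genes of every part of the 26S proteasome. Of the 48 tested members, 28 were called higher and 1 lower than on the casein control diet, beside 10.6% of all genes called higher and 12.7% called lower. The members' median log2 fold change was 0.23, and that of all genes 0.01. By role, 5 of 6 ATPases, 8 of 11 non-ATPase cap subunits, 6 of 8 alpha subunits and 4 of 7 constitutive beta subunits rose. The summed CPM of the 31 constitutive subunits was 3714 ± 103 (SD, n = 6) with casein control and 4466 ± 269 with casein MR. In 12 members all casein MR libraries were above all casein controls, beside 4.82% of all genes.

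Among the cap subunits the largest called difference was that of Psmd4, a ubiquitin receptor. Its CPM ran from 162.6 to 204.4 (median 181.2) in the casein controls and from 243.6 to 286.0 (median 268.5) with casein MR. The groups did not overlap, and the rise was 0.56 ± 0.07 (edgeR adjusted p = 3.94e-07). Psmd1, a scaffold of the cap, ran from 189.5 to 222.7 CPM (median 209.5) in the casein controls and from 241.6 to 283.1 (median 273.7) with casein MR. These groups did not overlap either, and Psmd1 rose by 0.37 ± 0.06 (edgeR adjusted p = 1.29e-05). The ATPase Psmc6 ran from 60.3 to 70.0 CPM (median 62.4) against 73.4 to 90.2 (median 83.0), without overlap, and rose by 0.38 ± 0.06 (edgeR adjusted p = 1.61e-05). The other called ATPases, Psmc2, Psmc3, Psmc4 and Psmc5, rose by 0.18 to 0.41, and Psmc1 missed the threshold at 0.19. The cap subunits Psmd2, Psmd3, Psmd7, Psmd11, Psmd12 and Psmd14 rose by 0.22 to 0.36. Psmd6, Psmd8 and Psmd13 were not called, at 0.11, -0.10 and -0.01.

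In the 20S core, Psma7 was the alpha subunit with the smallest p. It ran from 231.1 to 268.2 CPM (median 249.1) in the casein controls and from 284.7 to 362.6 (median 341.7) with casein MR. Every casein MR library lay above every casein control, and the rise was 0.43 ± 0.06 (edgeR adjusted p = 1.22e-06). Psma1, Psma2, Psma3, Psma5 and Psma6 rose by 0.20 to 0.56, while Psma4 (0.18) and the scarce Psma8 (0.56 ± 0.42) were not called. Of the constitutive beta subunits, Psmb3, Psmb4, Psmb5 and Psmb6 rose, and Psmb1, Psmb2 and Psmb7 had positive differences of 0.10 to 0.15 that were not called.

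The assembly chaperones and activators divided. Psmd5, a chaperone of the ATPase ring, ran from 22.2 to 27.7 CPM (median 25.8) in the casein controls and from 31 to 46.7 (median 40.9) with casein MR. The groups were separate, and its rise of 0.63 ± 0.09 (edgeR adjusted p = 5.80e-06) was the largest log2 fold change among the 48 members in this comparison. The 19S chaperones Psmd9 and Psmd10 were at 0.04 and -0.08, not called. Psmg2, which pairs with Psmg1 to start the alpha ring, ran from 16.8 to 21.5 CPM (median 18.9) in the casein controls and from 12.9 to 17.5 (median 14.5) with casein MR. The ranges overlapped slightly, and Psmg2 was the single member to fall, at -0.36 ± 0.12 (edgeR adjusted p = 0.0233). That call was lost on leaving out casein control library C_C_3413 or C_C_3436 or casein MR library C_MR_3419 or C_MR_3438, with adjusted p of 0.0523 to 0.062. It was also lost when libraries were scaled to total reads (-0.10, adjusted p = 0.466), a scaling that moved the median of all genes to 0.27 in this comparison. Relative to that median Psmg2 was at -0.37 under both scalings. This had to be so, since a change of scaling shifts all genes by about the same amount.

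Psme1 and Psme2 encode the subunits of PA28, an interferon-inducible cap that opens the core without ubiquitin. Psme1 had the smallest p of all members, with 86.1 to 111.9 CPM (median 95.0) in the casein controls and 125.4 to 149.5 (median 135.6) with casein MR. The groups did not overlap, and it rose by 0.52 ± 0.06 (edgeR adjusted p = 2.32e-07). Psme2 ran from 39.2 to 61.7 CPM (median 45.1) against 52.2 to 70.1 (median 59.9), with overlap, and rose by 0.38 ± 0.10 (edgeR adjusted p = 0.0063). The inhibitor Psmf1 rose by 0.24. The nuclear activator Psme3 (0.02) and the activator Psme4 (0.09) were not called. Psme2b, a near copy of Psme2 with which reads could be shared, was at 0.00 and is uncertain.

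With elemental amino acids the same restriction gave fewer calls. Of 48 members 7 were called higher and none lower, beside 6.78% of all genes called higher and 6.64% lower, with a median of 0.10 for the members. DESeq2 likewise called none lower, and at an unadjusted p under 0.05 edgeR had 20 higher and 0 lower. The share of all genes at that unadjusted threshold was not counted. The 7 were Psma7, Psmb10, Psmc6, Psmd4, Psmd5, Psmd7 and Psmd11, and all 7 were also called higher with casein MR, where they made up 25% of the 28. The MR comparisons share no libraries, but both were tested in the same model with a common estimate of the spread. The overlap of these calls over all genes was not counted. The count fell to 3 without elemental MR library E_MR_3405 and to 4 without elemental control library E_C_3427. The 31 constitutive subunits summed to 3676 ± 127 CPM with elemental control and 3955 ± 153 with elemental MR (SD, n = 6).

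**Figure D2:**
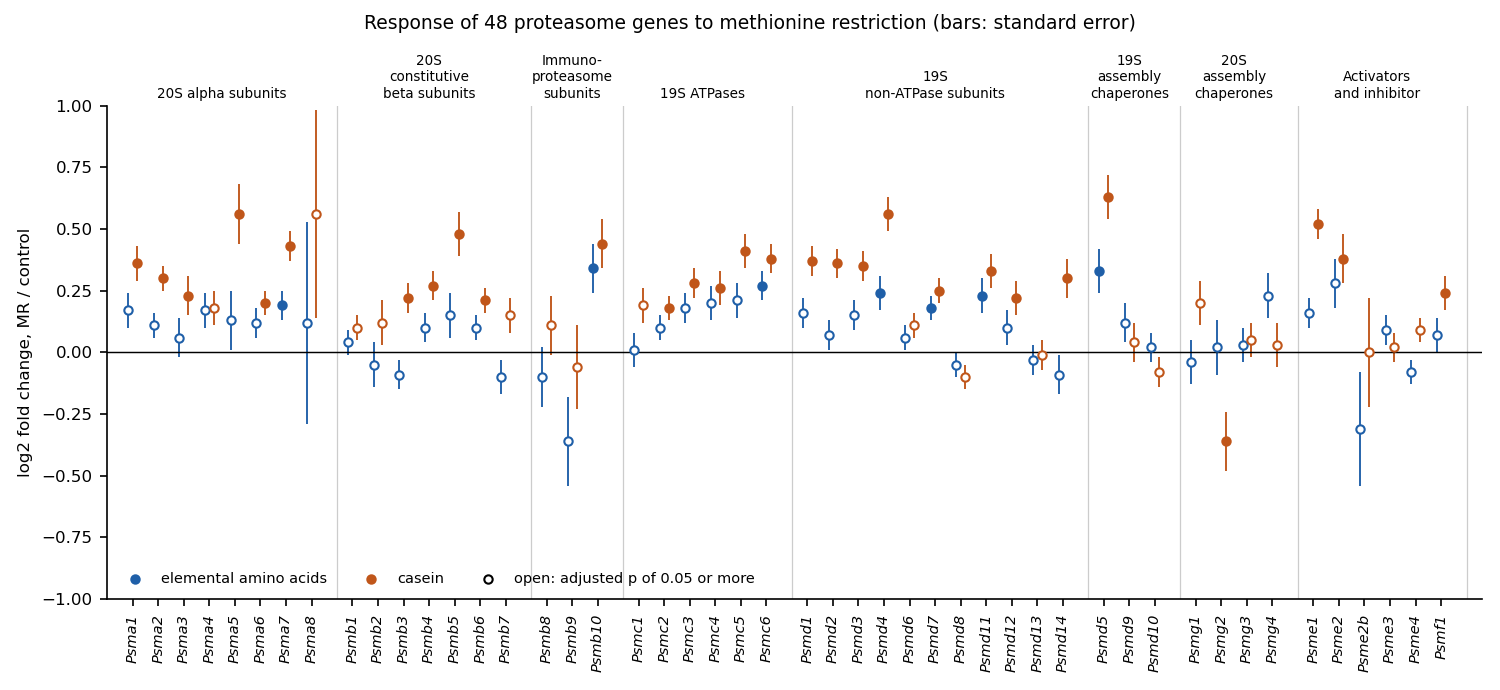
Log2 fold change of MR over control for the 48 tested members, grouped by role, with elemental amino acids in blue and casein in orange; bars are standard errors and filled points have an adjusted p under 0.05 in edgeR's quasi-likelihood test. Orange points are filled in 29 genes and blue points in 7, and Psmg2 is the single filled point below 0.

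Psmc6 had the smallest p with elemental MR. It ran from 57.7 to 63.4 CPM (median 61.3) in the elemental controls and from 66.1 to 80.7 (median 74.2) with elemental MR. The groups did not overlap, and it rose by 0.27 ± 0.06 (edgeR adjusted p = 0.00237). Psma7 also separated the groups, with 227.8 to 244.7 CPM (median 231.4) against 248.7 to 285.1 (median 267.5) and a rise of 0.19 ± 0.06 (edgeR adjusted p = 0.0229), lost without library E_MR_3405 (adjusted p = 0.063). The third member without overlap, Psmc5, missed the threshold at 0.21 (edgeR adjusted p = 0.0617), and non-overlap upward held for 3.24% of all genes.

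The other elemental MR calls overlapped with their controls. Psmd5 ran from 25.1 to 29.9 CPM (median 26.8) in the controls and from 29.2 to 39.9 (median 34.3) with MR, and rose by 0.33 ± 0.09 (edgeR adjusted p = 0.0133). Psmd4 ran from 167.3 to 221.0 CPM (median 191.0) against 220.7 to 249.7 (median 223.9), and rose by 0.24 ± 0.07 (edgeR adjusted p = 0.0178). Only the highest control exceeded the lowest MR library for Psmd4, and the call was lost without library E_C_3427 (adjusted p = 0.0551) or E_MR_3405 (adjusted p = 0.051). Psmd7, a cap subunit that pairs with the deubiquitinase Psmd14, ran from 135.0 to 160.0 CPM (median 143.2) against 159.3 to 185.8 (median 160.8) and rose by 0.18 ± 0.05 (edgeR adjusted p = 0.0175). Without library E_MR_3405, the highest of the 6, the Psmd7 call was lost (adjusted p = 0.0591). Psmd11, another cap subunit, rose by 0.23 ± 0.07 (edgeR adjusted p = 0.0342). None of the 7 constitutive beta subunits was called by edgeR, DESeq2 or limma-voom, 0 had an unadjusted p under 0.05, and their differences lay between -0.10 and 0.15.

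**Figure D3:**
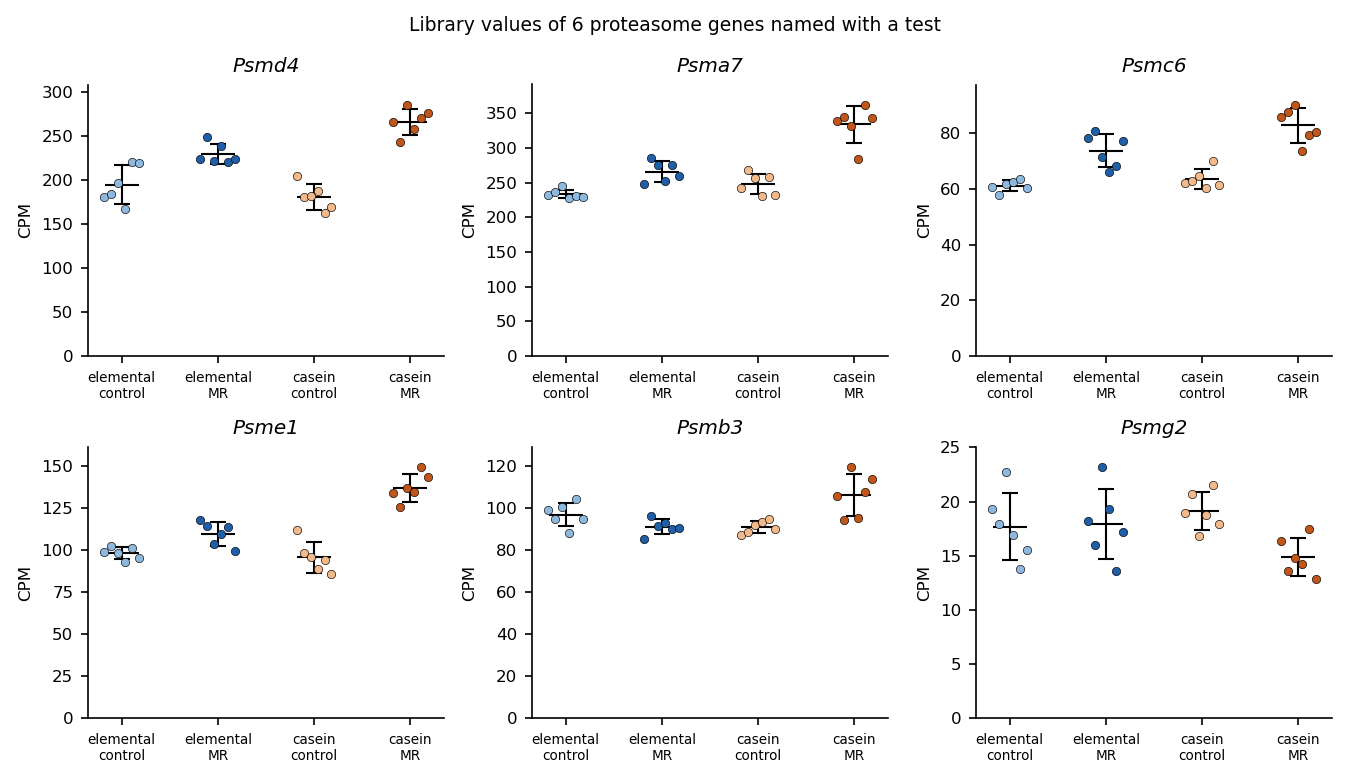
CPM in each of the 24 libraries for Psmd4, Psma7, Psmc6, Psme1, Psmb3 and Psmg2, with the mean and SD of each diet group (n = 6) as black bars. The 6 casein MR libraries lie above all casein controls for Psmd4, Psma7, Psmc6 and Psme1, and overlap them from below for Psmg2.

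The MR effects on the 2 protein sources were compared by the difference of the log2 fold changes, casein minus elemental. It was above 0 for 42 of the 48 members and for 30 of the 31 constitutive subunits, beside 6697 of 13441 genes overall. For 2 members, 4.17% of those tested, the difference itself was called, both higher with casein, beside 0.781% of all genes called higher and 1.56% lower. They were Psme1 at 0.36 ± 0.08 (edgeR adjusted p = 0.0185) and Psmb3 at 0.31 ± 0.08 (edgeR adjusted p = 0.0343). Psme1 ran from 92.9 to 102.6 CPM (median 98.7) in the elemental controls and from 99.2 to 118.0 (median 111.7) with elemental MR, ranges that overlap. Psmb3, a structural beta subunit, ran from 87.9 to 104.0 CPM (median 97.1) and 85.4 to 96.2 (median 91.0) in the elemental groups, and from 87.2 to 94.5 (median 91.0) and 94.4 to 119.5 (median 106.7) in the casein groups. The lowest casein MR library was thus level with the highest casein control. The Psme1 call held without any 1 of the 24 libraries. The Psmb3 call was lost in 11 of the 24 such fits, with an adjusted p of at most 0.0694, on leaving out elemental control library E_C_3401 or E_C_3428, elemental MR library E_MR_3403, E_MR_3416, E_MR_3423 or E_MR_3424, casein control library C_C_3413, or casein MR library C_MR_3412, C_MR_3425, C_MR_3433 or C_MR_3438. Without elemental MR library E_MR_3405, 4 members were called, and without casein control library C_C_3407 or casein MR library C_MR_3431, 5 were.

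The immunoproteasome genes were set beside the active subunits they replace, Psmb8 beside Psmb5, Psmb9 beside Psmb6 and Psmb10 beside Psmb7. Psmb8 (chr17:34197721-34201454, plus strand) and Psmb9 (chr17:34181987-34187764, minus strand) lie close together in the class II region of the major histocompatibility complex on GRCm38. Psmb10 lies at chr8:105935735-105938444 (minus strand), and Psmb5, Psmb6 and Psmb7 on chromosomes 14, 11 and 2.

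Promoters of the Psmb5 and Psmb8 pair, the Psmb6 and Psmb9 pair, and Psme1 are shown as the pairs of active subunits described below and the activator gene whose MR effect differed between the protein sources. They come from RefSeq's GRCm38.p6 table, which held 44 promoters of 41 of the 49 members, and run from 250 bases before to 50 bases after the start. The windows are chr14:54617946-54618245 (minus strand) for Psmb5, chr17:34197945-34198244 (plus) for Psmb8, chr11:70525107-70525406 (plus) for Psmb6, chr17:34187281-34187580 (minus) for Psmb9 and chr14:55578244-55578543 (plus) for Psme1. Capitals mark matches, on either strand, to the antioxidant response element core TGACNNNGC, the interferon-stimulated response element core (GAAA, 2 further bases, GAAA) or the NF-Y site CCAAT.
Psmb5: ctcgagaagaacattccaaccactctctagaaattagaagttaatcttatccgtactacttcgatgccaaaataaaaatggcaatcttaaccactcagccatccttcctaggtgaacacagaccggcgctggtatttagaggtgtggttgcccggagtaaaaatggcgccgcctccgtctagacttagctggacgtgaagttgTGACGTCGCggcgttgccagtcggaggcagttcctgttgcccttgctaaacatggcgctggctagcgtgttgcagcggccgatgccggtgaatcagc
Psmb8: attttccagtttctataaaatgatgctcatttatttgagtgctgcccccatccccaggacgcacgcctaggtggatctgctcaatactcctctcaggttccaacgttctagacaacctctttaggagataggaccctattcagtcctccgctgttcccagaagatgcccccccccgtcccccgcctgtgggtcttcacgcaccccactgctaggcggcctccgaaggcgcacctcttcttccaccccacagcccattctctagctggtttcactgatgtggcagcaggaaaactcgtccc
Psmb6: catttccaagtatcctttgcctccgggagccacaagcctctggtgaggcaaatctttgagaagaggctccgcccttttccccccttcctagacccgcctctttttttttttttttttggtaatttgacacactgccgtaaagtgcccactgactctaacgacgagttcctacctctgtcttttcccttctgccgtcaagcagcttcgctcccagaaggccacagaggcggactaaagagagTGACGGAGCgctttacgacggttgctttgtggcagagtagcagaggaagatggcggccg
Psmb9: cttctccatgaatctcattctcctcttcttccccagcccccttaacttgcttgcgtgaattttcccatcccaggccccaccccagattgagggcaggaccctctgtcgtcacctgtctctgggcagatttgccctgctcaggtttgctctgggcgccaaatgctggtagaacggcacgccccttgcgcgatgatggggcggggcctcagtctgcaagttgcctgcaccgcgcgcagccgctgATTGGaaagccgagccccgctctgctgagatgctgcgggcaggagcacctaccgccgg
Psme1: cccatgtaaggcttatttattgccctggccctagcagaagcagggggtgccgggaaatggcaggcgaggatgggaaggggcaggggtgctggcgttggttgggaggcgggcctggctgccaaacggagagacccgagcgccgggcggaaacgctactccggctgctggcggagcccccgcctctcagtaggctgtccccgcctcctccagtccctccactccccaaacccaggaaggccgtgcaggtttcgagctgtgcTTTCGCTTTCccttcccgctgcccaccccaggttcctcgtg
The capitals in Psmb5 and Psmb6 are antioxidant response element cores, at -47 to -39 and -9 to -1 from the start base. Those in Psmb9 are an NF-Y site on the opposite strand, and those in Psme1 an interferon-stimulated response element core on the opposite strand at 9 to 18. The window of Psmb8 held none of these letters. Over the members' 44 promoters, TGACNNNGC was found in 13.6%, the interferon-stimulated core in 11.4% and CCAAT in 31.8%, against 12.4%, 3.44% and 37.4% of all 32851 promoters in the table. No match to TGACNNNGC or to the interferon-stimulated core was found in the windows of the 3 immunoproteasome genes. The windows of Psmb8 and Psmb9 lie wholly inside the gene spans given above. That of Psme1 lies inside its span, chr14:55578123-55581529. For these genes the sequence before the annotated gene start was therefore not searched. By role, CCAAT was in 5 of 8 promoters of alpha subunits and in 0% to 33.3% of those of each other role. Psma6 gave more than 1 of these 8 promoters and Psma8 none. A match describes the letters of the window and was not tested as a binding site.

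Of the 3 active constitutive subunits, Psmb5 and Psmb6 rose with restriction on casein and Psmb7 was not called. Psmb5, the chymotrypsin-like subunit, ran from 19.2 to 23.3 CPM (median 20.1) with elemental control, 18.9 to 26.4 (median 23.6) with elemental MR, 17.9 to 22.5 (median 19.2) with casein control and 22.4 to 31.4 (median 27.4) with casein MR. Just 1 casein control reached the casein MR range. Psmb5 rose by 0.48 ± 0.09 with casein MR (edgeR adjusted p = 1.82e-04) and was at 0.15 ± 0.09 with elemental MR (edgeR adjusted p = 0.313). Psmb6, the caspase-like subunit, ran from 136.6 to 150.2 (median 144.1), 147.0 to 164.1 (median 153.1), 130.9 to 154.8 (median 143.7) and 147.9 to 176.4 CPM (median 167.4) in the same order. Its groups overlapped, with a rise of 0.21 ± 0.05 on casein (edgeR adjusted p = 0.00394) and 0.10 ± 0.05 with elemental amino acids (edgeR adjusted p = 0.268). Psmb7, the trypsin-like subunit, ran from 153.5 to 184.0 (median 166.0), 151.0 to 162.9 (median 157.1), 155.1 to 174.5 (median 168.0) and 151.4 to 228.3 CPM (median 182.7). The library C_MR_3438 stood at the top of a wide casein MR range, and neither restriction was called, at -0.10 ± 0.07 and 0.15 ± 0.07. Between the control diets the 3 subunits differed by -0.01 to -0.08, none called.

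All 3 immunoproteasome genes were called higher with casein MR than with elemental MR, and 1 of them, Psmb10, was called with each restriction. Psmb8 ran from 24.9 to 46.1 CPM (median 29.2) with elemental control, 26.3 to 32.2 (median 30.2) with elemental MR, 34.9 to 49 (median 44.9) with casein control and 37.7 to 53.5 (median 47.1) with casein MR. All casein MR libraries were above all elemental MR libraries, while 2 elemental controls reached into the casein controls. Psmb8 was higher with casein MR than with elemental MR by 0.66 ± 0.12 (edgeR adjusted p = 7.39e-04). Restriction itself was not called for Psmb8, at -0.10 ± 0.12 with elemental amino acids (edgeR adjusted p = 0.686) and 0.11 ± 0.12 on casein (edgeR adjusted p = 0.564).

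Psmb9 ran from 10.5 to 22.1 CPM (median 16.1), 11.7 to 13.8 (median 12.7), 19.1 to 32.1 (median 22.3) and 14.9 to 31.4 (median 22.3) in the same order of groups. Its elemental MR libraries were close together and all below the casein MR libraries, which were spread widely. The difference between the MR diets was 0.85 ± 0.17 (edgeR adjusted p = 0.00207), the largest log2 fold change among the 48 members in that comparison. Restriction was at -0.36 ± 0.18 with elemental amino acids (edgeR adjusted p = 0.196) and -0.06 ± 0.17 on casein (edgeR adjusted p = 0.847).

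Psmb10 ran from 24.4 to 35.1 CPM (median 28.5), 32.8 to 40.4 (median 37.5), 31.1 to 44.8 (median 37.7) and 41.8 to 56.9 (median 52.5). The MR groups did not overlap each other, and each MR group overlapped its own control. Psmb10 differed from Psmb8 and Psmb9 in being called with both restrictions. It rose by 0.34 ± 0.10 with elemental MR (edgeR adjusted p = 0.0198, and 0.0585 without elemental control library E_C_3427) and by 0.44 ± 0.10 with casein MR (edgeR adjusted p = 9.15e-04). It was higher with casein MR than with elemental MR by 0.47 ± 0.10 (edgeR adjusted p = 0.00196). The differences between the MR effects on the 2 protein sources were not called for Psmb8, Psmb9 or Psmb10, at 0.21 ± 0.17, 0.30 ± 0.24 and 0.11 ± 0.14.

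**Figure D4:**
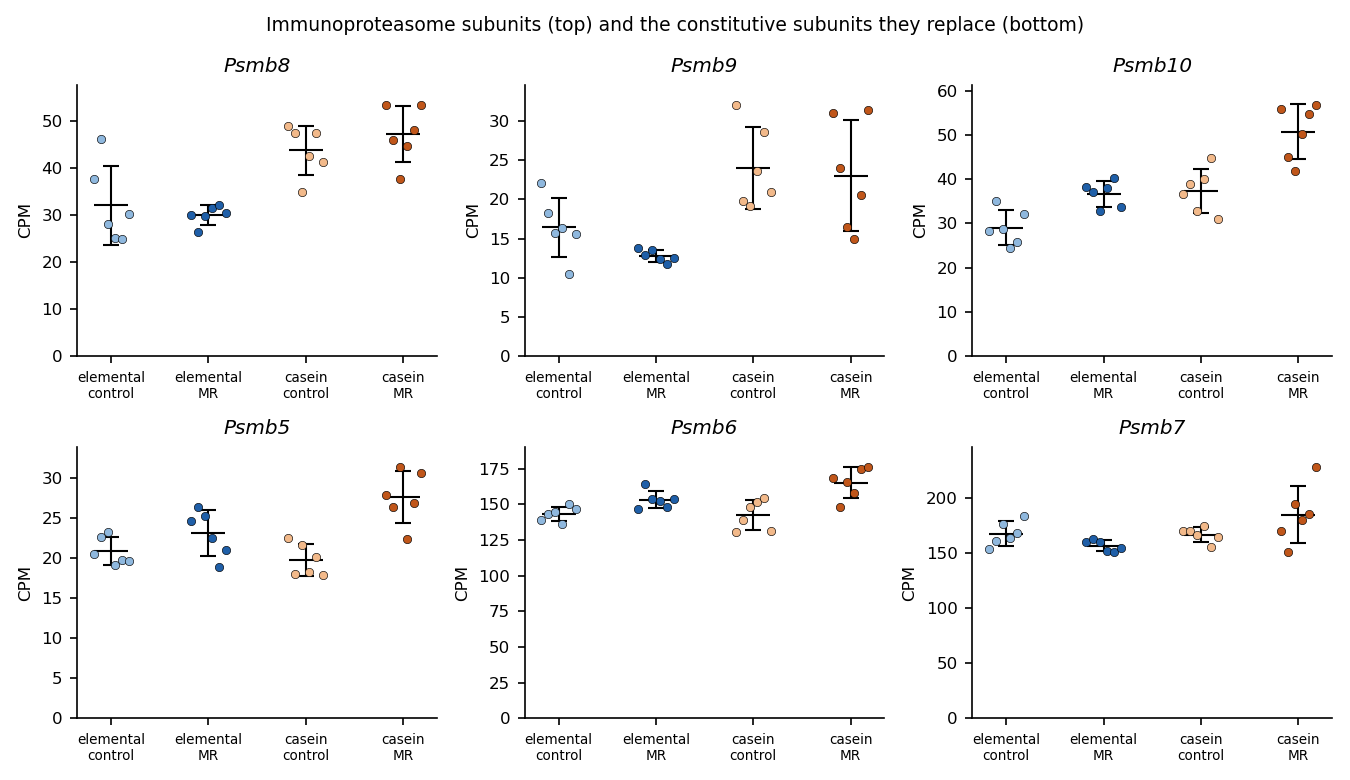
CPM in each of the 24 libraries for Psmb8, Psmb9 and Psmb10 (top) and for Psmb5, Psmb6 and Psmb7, which they replace (bottom), with the mean and SD of each diet group (n = 6) as black bars. For the top genes the casein MR libraries lie above all elemental MR libraries, and Psmb10 alone of the 3 is higher with restriction on both protein sources by edgeR's test.

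On the control diets the casein and elemental groups gave no called member with edgeR, beside 0.104% of all genes called in either direction. At an unadjusted p under 0.05, 6 members were higher with casein and 0 lower, the 3 immunoproteasome genes among them. The share of all genes at that unadjusted threshold was not counted. Psmb8 was at 0.45 ± 0.12 (edgeR adjusted p = 0.155), Psmb9 at 0.55 ± 0.17 (0.201) and Psmb10 at 0.36 ± 0.10 (0.151). DESeq2 called 2 members, Psmb8 (adjusted p = 0.0454) and Psmb10 (adjusted p = 0.0497), and limma-voom called 0. Of all genes these tools called 89 and 3. Without elemental control library E_C_3417, edgeR called Psmb8 at 0.58 (adjusted p = 0.0253). Between the MR diets 16 of 48 members were called higher with casein and 0 lower, beside 2.72% and 3.78% of all genes. At an unadjusted p under 0.05, 30 were higher and 1 lower, again with no share of all genes counted. DESeq2 and limma-voom likewise called none lower. Those called were the 3 immunoproteasome genes, 4 alpha and 3 constitutive beta subunits, 1 ATPase, 3 other cap subunits, Psme1 and Psmf1. The groups did not overlap in 6 members, beside 1.58% of all genes.

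Beyond the immunoproteasome, the smallest p values between the MR diets belonged to core and cap subunits and the activator gene Psme1. Psma7 was higher by 0.33 ± 0.06 (edgeR adjusted p = 2.99e-04), its highest elemental MR library just reaching the lowest casein MR library. Psmd14, the deubiquitinase of the cap, ran between 52.0 and 69.6 CPM (median 58.1) in the elemental MR group and between 66.4 and 92.6 (median 83.2) in the casein MR group. The ranges overlapped at their ends, and the difference was 0.46 ± 0.08 (edgeR adjusted p = 6.47e-04). Psme1 was higher by 0.32 ± 0.06 (edgeR adjusted p = 8.02e-04), and Psma2 ran from 152.7 to 171.6 (median 167.0) against 178.0 to 208.3 CPM (median 198.8), without overlap, at 0.26 ± 0.05 (edgeR adjusted p = 0.0017). Without casein MR library C_MR_3438, the one with the highest muscle sum, 12 members remained called between the MR diets, and Psmb7 was among those lost. On casein against its control, 28 members stayed called higher without that library. Without C_MR_3425, 13 members were called between the MR diets, with Psmb7 again lost, and 27 were called higher on casein against its control.

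The balance of immunoproteasome and constitutive transcripts was described as the mean log2 CPM of Psmb8, Psmb9 and Psmb10 less that of Psmb5, Psmb6 and Psmb7 in each library, with no test. It was -1.70 ± 0.27 with elemental control, -1.76 ± 0.12 with elemental MR, -1.20 ± 0.19 with casein control and -1.33 ± 0.25 with casein MR (SD, n = 6). It thus differed by 0.50 between the control diets and by 0.43 between the MR diets, and by -0.06 and -0.12 with restriction. Taken instead as the log2 ratio of the summed CPM, the balance was -2.12, -2.07, -1.66 and -1.65 in the same order of groups. The small differences with restriction thus changed sign with the measure, while those between the protein sources did not. The pairs did not move as one. Psmb8 less Psmb5 was 1.14 ± 0.24 with casein control and 0.77 ± 0.26 with casein MR, whereas Psmb10 less Psmb7 was -2.16 ± 0.22 and -1.86 ± 0.22. The 3 immunoproteasome genes summed to 77.5 ± 14.2, 79.5 ± 3.62, 105.1 ± 13.2 and 121.1 ± 17.9 CPM in the order of groups above.

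**Figure D5:**
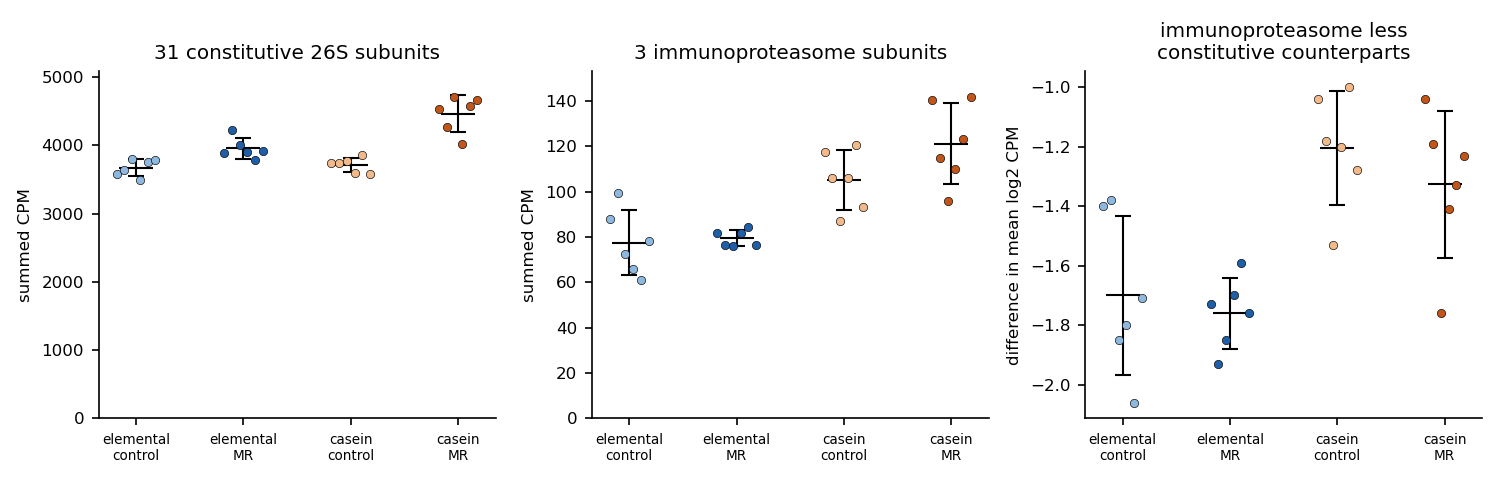
Summed CPM of the 31 constitutive subunits (left), summed CPM of the 3 immunoproteasome subunits (middle) and the mean log2 CPM of the immunoproteasome subunits less that of their constitutive counterparts (right) in each library, with group mean and SD (n = 6). The left sum is highest with casein MR, at 4466, and the right balance is higher in both casein groups, at -1.20 and -1.33, than in both elemental groups.

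Leukocytes express the immunoproteasome, and their markers were measured in the same libraries. Of 20 leukocyte markers 18 had a row and 15 were tested, and 0 were called between the MR diets by edgeR, where 3 were higher and 0 lower at an unadjusted p under 0.05. DESeq2 called 0 and limma-voom 1 of them. Between the MR diets 13 of the 15 were above 0, with a median of 0.25, beside 6710 of 13441 genes overall. With restriction Cd4 alone of the 15 was called by edgeR, lower on both protein sources. Of all genes, 6.64% were called lower with elemental MR and 12.7% with casein MR. Their summed level ran between 51.1 and 84.2 CPM in the elemental MR libraries, 68.5 and 123.9 in the casein MR libraries, and from 55.8 to 123.2 and 70.6 to 135.1 in the elemental and casein controls. Cd74, an antigen presentation chaperone, was at 0.70 ± 0.22 between the MR diets (edgeR adjusted p = 0.0552), and Ptprc, the pan-leukocyte marker CD45, at 0.14 ± 0.17 (edgeR adjusted p = 0.729). The T cell markers Cd3e, Cd3g and Cd8a were at 0 reads in 1, 2 and 3 of the 24 libraries. None of the 11 Kupffer cell markers was called in any comparison by edgeR, DESeq2 or limma-voom, and edgeR had 1 at an unadjusted p under 0.05, higher with casein MR than with its control. Scaled to total reads, 8 of the 11 were called in that comparison, beside 6499 of 13441 genes overall. With TMM scaling all 11 were above 0 in that comparison (median 0.15) and between the MR diets (median 0.19). With elemental MR against its control 4 of the 11 were above 0. The Kupffer cell markers' summed level ran between 403.9 and 633.4 CPM in the elemental MR libraries and between 527.3 and 877.1 in the casein MR libraries. Between the MR diets 1 of 8 endothelial markers (Lyve1) and 1 of 8 stellate cell markers (Des, which muscle also expresses) were called higher by edgeR. DESeq2 and limma-voom called 0 stellate cell markers there, and 1 library held 1015 of the 2224 Des reads. All 7 tested muscle markers were also called higher there by edgeR, while DESeq2 called 2 and limma-voom 0. The share of all genes called higher there by edgeR was 2.72%. The part of leukocytes and these other liver cells in the immunoproteasome values was not tested. In whole liver, fewer cells of a type and less RNA per cell cannot be told apart.

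Most hepatocyte markers moved opposite to the proteasome genes, more so with casein MR. With casein MR 7 of 8 were called lower, with a median of -0.74, beside 12.7% of all genes. With elemental MR 3 of 8 were called lower, beside 6.64% of all genes. Their median was then -0.13 and the highest value 0.24, and edgeR had 1 marker higher at an unadjusted p under 0.05. Albumin, the main plasma protein, fell by 0.71 ± 0.06 on the log2 scale with casein MR (edgeR adjusted p = 7.22e-10) and by 0.35 ± 0.06 with elemental MR (edgeR adjusted p = 1.41e-04). Scaling to total reads, chosen after seeing the data, moved the median of all genes to 0.14 with elemental MR and 0.27 with casein MR. The members' median exceeded that of all genes by 0.11 and 0.22 under both scalings. That margin could not differ between scalings, since a change of scaling shifts all genes of a comparison by about the same amount.

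Partners of the proteasome outside the prefix also rose with casein MR, in 7 of 15 tested genes, and in 2 of 15 with elemental MR. The shares of all genes called higher were 10.6% and 6.78%. Adrm1, the ubiquitin receptor of the cap, rose by 0.54 ± 0.08 with casein MR (edgeR adjusted p = 1.63e-05) and 0.35 ± 0.08 with elemental MR (edgeR adjusted p = 0.00473). Ecpas, which binds cap to core, and Ubqln4, a shuttle for ubiquitin-tagged proteins, rose by 0.38 ± 0.06 and 0.62 ± 0.10 with casein MR. With elemental MR they were at 0.14 and 0.26, not called. Pomp, the maturation factor of the core, was not called with either restriction (-0.07 on casein and -0.02 with elemental amino acids, or 0.19 and 0.13 scaled to total reads).

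Of 9 genes that control proteasome transcription, 3 rose with each restriction. Of all genes, 6.78% were called higher with elemental MR and 10.6% with casein MR. Nfe2l1 rose by 0.32 ± 0.07 with elemental MR (edgeR adjusted p = 0.00148) and 0.28 ± 0.07 with casein MR (edgeR adjusted p = 0.0023). Mafg, a small partner of NRF1 and NRF2, rose by 0.40 ± 0.09 and 0.48 ± 0.09. Nfe2l2, which encodes NRF2, was not called, at -0.10 and -0.13 (0.04 and 0.12, not called, scaled to total reads). The difference between the MR effects was called for none of the 9 by edgeR, DESeq2 or limma-voom, and edgeR had 1 at an unadjusted p under 0.05. Among 11 genes for ubiquitin and its carriers, 1 rose with elemental MR (Ube2d3, a ubiquitin-conjugating enzyme, 0.21). That is 9.09%, near the 6.78% of all genes called higher. With casein MR 3 rose, namely the segregase Vcp (0.23) and its cofactors Nploc4 (0.31) and Ufd1 (0.16). That is 27.3%, beside 10.6% of all genes.

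The class I presentation list of 15 genes did not move in 1 direction with casein MR, where 4 rose and 2 fell. Of all genes, 10.6% were called higher and 12.7% lower, so the share that fell was near that of all genes. The rises included Irf7 (0.39 ± 0.13, edgeR adjusted p = 0.0261), an interferon regulatory factor, and Nlrc5 (0.43 ± 0.15, edgeR adjusted p = 0.0428), the activator of class I genes. Those that fell were the class I heavy chain H2-K1 (-0.40) and its light chain B2m (-0.25). Scaled to total reads, where the median of all genes was at 0.27, they were at -0.14 and 0.01 and neither was called. Tap1, the peptide transporter encoded beside Psmb9, was at -0.11 with elemental MR and 0.47 ± 0.17 between the MR diets (edgeR adjusted p = 0.114). Tapbpl, a peptide editor, was called between the MR diets, at 0.38 ± 0.11 (edgeR adjusted p = 0.0291).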

How the data were processed

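RNA of 24 mouse liver samples was sequenced. The deposited raw table holds read counts per gene, and the deposited normalized table holds a signal that was checked to equal those counts divided by 1 size factor per library (0.745 to 1.324). Only the counts were tested. For the kit, strandedness, aligner, counting tool and build, the entry is: not given in the sources used here. In edgeR 4.0.16 (R 4.3.3), filterByExpr left 13441 genes with 99.93% of the reads, trimmed-mean (TMM) scaling was applied, and 1 quasi-likelihood model with a mean per group was fitted to all 24 libraries. The p-values were adjusted over all genes by Benjamini and Hochberg's method. Standard errors are the absolute log2 fold change over the root of F, and log2 CPM use a prior count of 2. Levels per kb divide CPM by exon length in GENCODE M21 (GRCm38), which may differ from the annotation used for counting. The code was tested on simulated data. Alternatives were other scalings, other filters, 1 surrogate variable (sva 3.50.0), the compared groups alone, DESeq2 1.42.0, limma-voom (limma 3.58.1) with quality weights and leaving out each library. The members and gene lists were chosen with earlier results of these data known. Values and tests are given for Psmb5 to Psmb10, Psme1, Psme2 and, per comparison, the 5 called members with the smallest p in each direction. From each other list, at most the 4 genes with the smallest p and a few fixed genes are named; Cd74, Des, Lyve1 and Tapbpl were named after their values were seen. Some results of the class I list are not reported here.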

Additional observations from a re-analysis of the deposited data

Results flagged for a closer look

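Among 76 sets of 6 libraries checked, mostly for the 18 named members, 5 had 1 library far from the rest. Chance alone flags about 1 in 20 such sets. Casein control library C_C_3436 was high for Psma2, at 184.8 CPM against 149.2 to 160.7 in the others, and for Psme2, at 61.7 against 39.2 to 46.3. Casein MR library C_MR_3431 was low for Psma2, at 178.0 CPM against 198.7 to 208.3. Elemental MR library E_MR_3405 was high for Psmd1, at 256.5 CPM against 224.8 to 236.5, and for Psmd7, at 185.8 against 159.3 to 167.2. The MR effect was larger with casein than with elemental amino acids for Psme1, by 0.36 on the log2 scale (edgeR adjusted p = 0.0185), and for Psmb3, by 0.31 (edgeR adjusted p = 0.0343).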

How the results depend on the processing

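Scaling to total reads, chosen after seeing the data, raised the count of members called from 7 to 31 with elemental MR, from 29 to 44 with casein MR, from 2 to 11 for the difference of the effects and from 16 to 34 between the MR diets. Over all genes the counts called went from 1803 to 3329, 3137 to 6499, 315 to 331 and 873 to 1388 in the same order. This scaling moved the median of all genes by 0.14, 0.27, 0.12 and 0.11. DESeq2 called 4 members for the difference and 2 between the control diets, where edgeR called 2 and 0. Of all genes, DESeq2 called 452 and 89 in these comparisons, and edgeR 315 and 14. Leaving out 1 library at a time gave 3 to 10 members with elemental MR, 28 to 31 with casein MR, 1 to 5 for the difference, 0 to 1 between the control diets and 12 to 22 between the MR diets. The balance of immunoproteasome and constitutive transcripts then differed by 0.42 to 0.56 between the control diets and by 0.38 to 0.52 between the MR diets. The other planned settings kept these counts within 1.5 times. Psmb7 between the MR diets lost its call with only the compared groups in the fit (adjusted p = 0.0611). No call changed direction. No paired analysis was possible because the groups share no replicate numbers. Depth limits the scarce Psma8, Psme2b and Psmc3ip most.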
